A study of Rattus norvegicus with 10 samples.

Results

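The lysyl oxidase family and the collagen chaperone gene Serpinh1 were followed in rat cells labelled A7r5, a line derived from embryonic aortic smooth muscle, after stable transfection. The members are Lox, Loxl1, Loxl2, Loxl3, Loxl4 and Serpinh1. They were chosen by name, and their probe sets are those to which the platform annotation gives only that gene. This found 8 probe sets for 5 of the 6 genes, out of 31042 probe sets in all and 14217 genes with a probe set of their own. Loxl4 was named by none of them and was not analysed here. RNA was measured on single-colour Affymetrix rat arrays, and each value is the log2 RMA summary of a probe set as deposited by the authors.

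The 10 arrays fall into 5 groups of 2. One carries the empty vector, although its title calls these cells native, and one the wild-type human BMPR2, which encodes a receptor of the BMP pathway. The CD mutant carries the deletion 2579-2580delT in the cytoplasmic tail of the receptor, the KD mutant C994T in the kinase domain, and the ED mutant T354G in the extracellular domain. The cells of all groups were normoxic and were taken at about 50% confluence in medium with 10% serum. The labels do not say whether a transfected line is 1 clone or a pool, nor whether its 2 arrays stand for separate cultures. P-values therefore measure only array-to-array spread, possibly technical, and 2 arrays a group limit the precision.

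Fibrillar collagens and elastin gain strength outside the cell through covalent cross-links. Lysyl oxidases are secreted copper enzymes that start these links by oxidising lysine side chains, and Lox and Loxl1 are the best known of them in the vessel wall. Serpinh1 encodes HSP47, which binds procollagen in the endoplasmic reticulum and keeps the triple helix folded on its way to the Golgi. HSP47 is a heat shock protein that is made together with collagen in mesenchymal cells.

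Promoter sequences of 4 of the 6 members are given by RefSeq on the build GRCr8, each a window of 300 bases that spans the start of the gene. They are shown here only for Loxl1 and Serpinh1, whose windows hold the motifs marked in capitals. The Loxl1 probe set and 1 of the 2 Serpinh1 probe sets stood high on the same arrays. So did the Loxl3 probe set, whose window is not shown and holds none of the motifs searched. Capitals in the Serpinh1 promoter, chr1:163062927-163063226 on the minus strand, mark a heat shock element. Those in the Loxl1 promoter, chr8:67612175-67612474 on the minus strand, mark Smad-binding elements, short sites for the transcription factors that BMP and TGF-beta receptors activate.
Serpinh1: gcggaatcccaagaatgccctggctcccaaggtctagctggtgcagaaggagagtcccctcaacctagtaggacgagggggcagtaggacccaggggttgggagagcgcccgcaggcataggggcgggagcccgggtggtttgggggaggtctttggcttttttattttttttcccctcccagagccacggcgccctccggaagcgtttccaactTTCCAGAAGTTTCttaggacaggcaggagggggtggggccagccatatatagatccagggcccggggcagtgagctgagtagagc
Loxl1: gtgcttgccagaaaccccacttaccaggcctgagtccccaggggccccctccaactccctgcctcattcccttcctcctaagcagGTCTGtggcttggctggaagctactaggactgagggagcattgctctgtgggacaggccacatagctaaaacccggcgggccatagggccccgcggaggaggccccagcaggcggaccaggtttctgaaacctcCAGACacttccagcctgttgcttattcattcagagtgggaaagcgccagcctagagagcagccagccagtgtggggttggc

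The heat shock element was searched as TTCNNGAANNTTC or GAANNTTCNNGAA, each the reverse complement of the other. It occurs once in the Serpinh1 promoter, at bases 216 to 228 of the window, and 0.798% of 33469 rat promoters of this length hold one. The Smad-binding element, CAGAC on either strand, occurs 2 times in the Loxl1 promoter, once in that of Loxl4 and in 50.1% of all promoters. Searched the same way, the GC box GGGCGG was found once in Serpinh1, 3 times in Loxl4 and in 33.1% of all promoters. The TATA box TATAAA, present in 14.2% of all promoters, and the hypoxia response element ACGTG, present in 19.3%, were found in none of the 4 windows. The Loxl3 promoter held none of the 5 motifs. No binding was measured, and a match describes letters only.

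The KD mutant arrays stood apart before any member was read. Across probe sets they correlated with the other 8 at 0.709 to 0.719, while those 8 correlated with each other at 0.992 to 0.996 and the KD mutant pair at 0.992. The fit was run on all 10 arrays over 22502 probe sets that reached the filter level, log2 4.82, on at least 2 arrays. A probe set is called changed at an adjusted p under 0.05 by limma, with Benjamini-Hochberg adjustment over all tested probe sets. Between the KD mutant and wild type 89.6% of tested probe sets were called, 34.5% as higher and 55.1% as lower, so being called there sets a gene apart from few others. The median tested probe set lay at -0.56 on the log2 scale in that comparison, and at -0.16 once array medians were set equal. The mean of the 57 Affymetrix control probe sets was 8.12 and 8.37 on the KD mutant arrays and 8.98 to 9.45 on the other 8, and the part of this in the members' differences was not tested.

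Of the 8 member probe sets, 7 were tested. Those of Lox and Loxl2, and 1 of Serpinh1, 5 in all, passed the filter only through the KD mutant arrays, on which they are bright, and therefore had to differ there. Their differences from the KD mutant are given as descriptions, with no test or rank, and since the other groups are below the filter level their size is not measured exactly. Those of Loxl1 and Loxl3 were above the filter level on all 10 arrays. The second Serpinh1 probe set was below it on all 10 and was not tested. Of all probe sets on the array, 6.89% were dim on the 8 arrays and above the filter level on both KD mutant arrays.

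**Figure D1:**
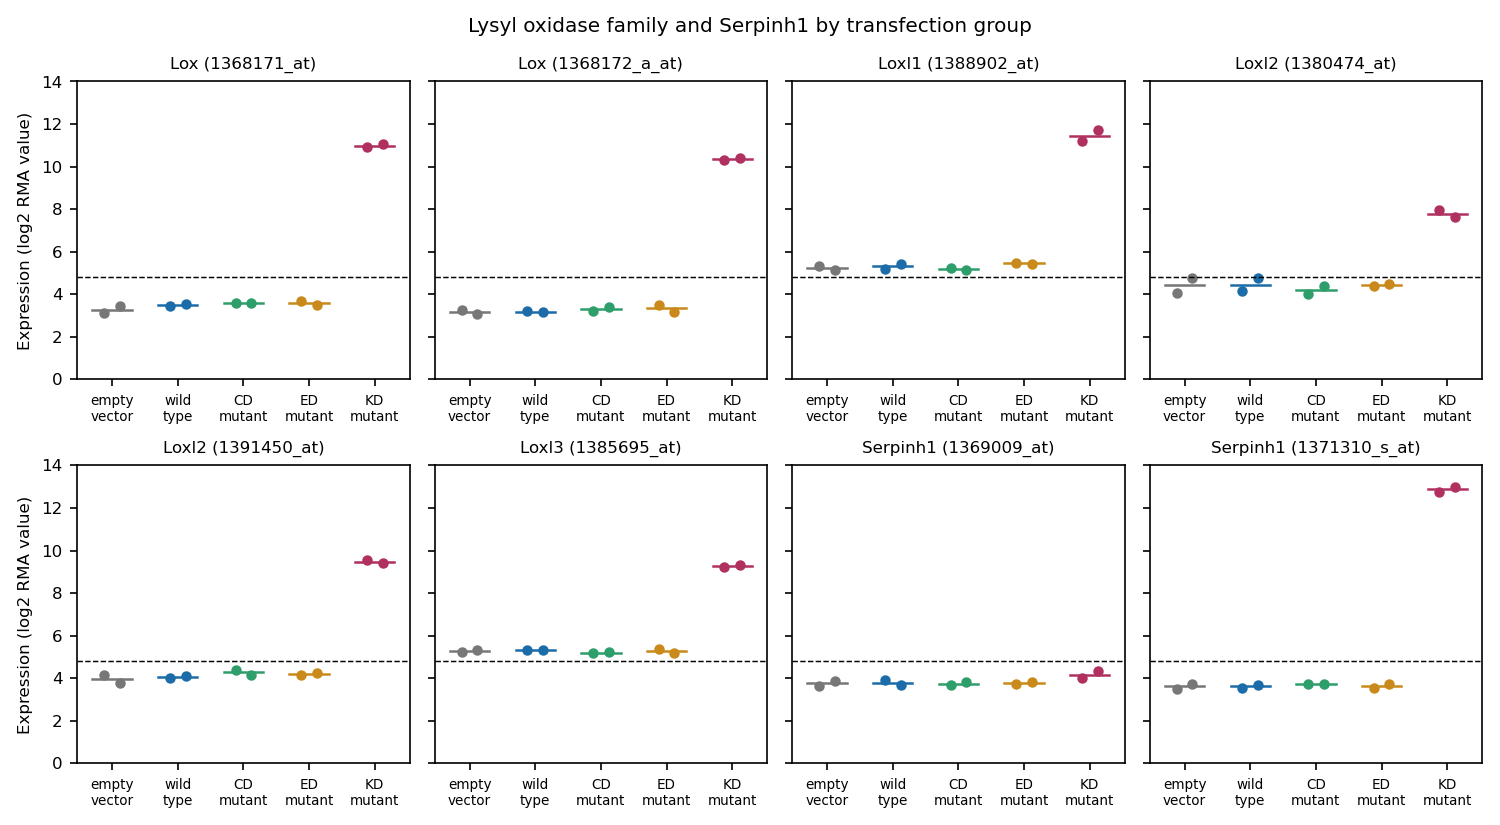
Log2 RMA values of the 8 member probe sets in each transfection group, with 1 point per array and a bar at the group mean (n = 2); the dashed line is the filter level, log2 4.82. In 7 panels both KD mutant arrays lie far above the other 8, and in the panel of Serpinh1 probe set 1369009_at they lie 0.10 above the highest of them.

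Lox encodes the founding lysyl oxidase, which cross-links collagen and elastin. Its probe set 1368171_at read 3.10 and 3.43 with empty vector, 3.42 and 3.53 with wild-type BMPR2, 3.60 and 3.58 with the CD mutant, 3.69 and 3.49 with the ED mutant, then 10.92 and 11.05 with the KD mutant. All 8 arrays outside the KD mutant lay below the filter level, and both KD mutant arrays lay at least 7.23 above the highest of them. The KD mutant mean was 10.99 ± 0.093 (SD, n = 2) against 3.48 ± 0.074 with wild type, a difference of 7.51, and it stood 6.17 above the filter level. The other Lox probe set, 1368172_a_at, read 10.33 and 10.40 in the KD mutant and 3.05 to 3.52 on the other 8 arrays. The 2 probe sets thus gave like differences, 7.51 and 7.18.

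Loxl1 encodes the lysyl oxidase that is tied to elastic fibre upkeep. It read 5.31 and 5.14 with empty vector, 5.203 and 5.404 with wild type, 5.22 and 5.15 with the CD mutant, 5.48 and 5.41 with the ED mutant, then 11.19 and 11.72 with the KD mutant. The 2 ED mutant arrays were the highest of the 8, only just above 1 wild-type array, and the lower KD mutant array lay 5.71 above them. The KD mutant mean of 11.45 ± 0.37 (SD, n = 2) lay 6.15 above the wild-type mean of 5.30 ± 0.14 (SE 0.155, adjusted p = 7.75e-12 in limma). This is a 71.0-fold difference, with both groups above the filter level, though wild type at 5.30 lay close to it. In its SD the KD mutant pair of Loxl1 was the most spread of the 8 member probe sets.

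Loxl2 encodes a lysyl oxidase with scavenger receptor domains that acts on collagen IV of basement membranes among other substrates. Its probe set 1391450_at read 4.17 and 3.80 with empty vector, a mean of 4.05 ± 0.072 (SD, n = 2) with wild type, 4.37 and 4.17 with the CD mutant, 4.17 and 4.24 with the ED mutant, then 9.54 and 9.41 with the KD mutant. All 8 arrays outside the KD mutant were below the filter level and spanned 0.57. The KD mutant mean lay 5.42 above wild type and 4.65 above the filter level. The other probe set, 1380474_at, read 7.96 and 7.61 in the KD mutant and 4.02 to 4.77 on the other 8, with a KD mutant mean 3.34 above wild type and 2.97 above the filter level. Both had to be higher there, since each passed the filter only through the KD mutant arrays, and their differences lay 2.08 log2 units apart.

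Loxl3, a close relative of Loxl2, read 5.21 and 5.34 with empty vector, 5.33 and 5.31 with wild type, 5.19 and 5.21 with the CD mutant, 5.37 and 5.17 with the ED mutant, then 9.24 and 9.31 with the KD mutant. All arrays were above the filter level, and the 8 outside the KD mutant lay close to it and spanned 0.20. The KD mutant lay 3.95 above wild type (SE 0.106, adjusted p = 1.24e-11 in limma), a 15.5-fold difference.

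For Serpinh1 the 2 probe sets disagreed. Probe set 1371310_s_at read 3.52 and 3.74 with empty vector, 3.54 and 3.70 with wild type, 3.73 and 3.74 with the CD mutant, 3.54 and 3.71 with the ED mutant, then 12.76 and 13.01 with the KD mutant. The KD mutant mean stood 8.06 above the filter level, and 9.26 above the wild-type mean of 3.62, which is below it. Probe set 1369009_at read 3.65 and 3.86 with empty vector, 3.91 and 3.68 with wild type, 3.66 and 3.81 with the CD mutant, 3.71 and 3.85 with the ED mutant, then 4.02 and 4.33 with the KD mutant. Without the filter its difference of 0.37 from wild type had an adjusted p of 0.0239 in limma, and 86.4% of 31042 probe sets were called in that comparison. The ending _s_at marks, in Affymetrix naming, a probe set whose probes match more than 1 transcript. Which of the 2 reads Serpinh1 RNA was not tested.

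Loxl1 and Loxl3 could be placed among all tested probe sets, since they were above the filter level in every group. Their differences between the KD mutant and wild type stood at percentile 99.4 for Loxl1 and 95.9 for Loxl3. Quantile normalization and median centring changed neither sign nor call of either. Loxl1 was also called higher in the KD mutant against empty vector, the CD mutant and the ED mutant, by 6.23, 6.27 and 6.01, and Loxl3 by 4.001, 4.08 and 4.003 (adjusted p from 6.71e-12 to 1.15e-11 in limma). These comparisons share the KD mutant arrays and are not independent, and 34.5% of tested probe sets were called higher in each.

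**Figure D2:**
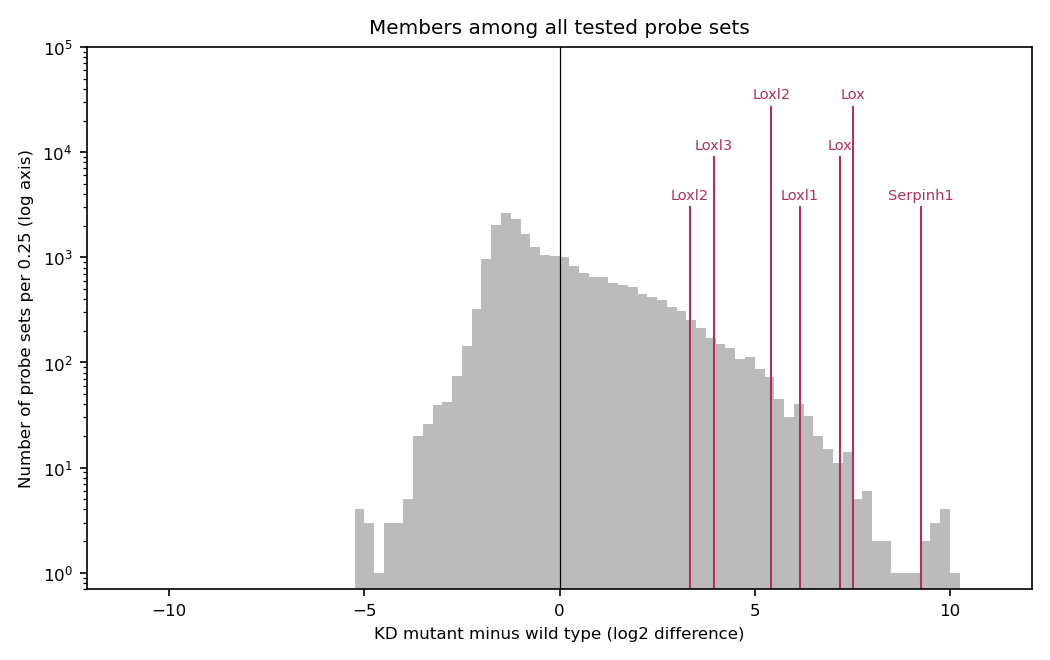
Histogram of the log2 difference between the KD mutant and wild type over the 22502 tested probe sets, in bins of 0.25 with a log count axis; red lines mark the 7 tested member probe sets. Loxl1 at 6.15 and Loxl3 at 3.95 lie in the upper tail of a distribution whose median is -0.56; the other 5 lines, from 3.34 to 9.26, passed the filter only through the KD mutant arrays and had to lie above 0.

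Outside the KD mutant, no member passed the test. Empty vector, wild type, CD mutant and ED mutant give 6 comparisons, and the 7 tested probe sets give 42 differences, of which 0 were called in limma and 2 had an unadjusted p under 0.05. The background in these comparisons was also low, at 0.0133% called for wild type against empty vector, 0% for the CD mutant and 0.164% for the ED mutant against wild type, 0.111% and 0.529% for these mutants against empty vector, and 0.351% between them. Both differences with a low unadjusted p came from Lox probe set 1368171_at. In each of the CD and ED mutants it stood 0.33 above empty vector (adjusted p = 0.49 and 0.349 in limma), with 95% confidence intervals of 0.048 to 0.605 for each. All 4 arrays of these mutants were above both empty vector arrays, and the means of all 3 groups are below the filter level. The second Lox probe set stood 0.16 (CD mutant) and 0.18 (ED mutant) above empty vector, with groups that overlapped. A moderated F test over the 4 groups called 0 of the 7, with 0 at an unadjusted p under 0.05 and the lowest adjusted p at 0.588 for Lox, while 0.369% of all tested probe sets were called.

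The order of the group means outside the KD mutant differed between genes, and no 2 groups in it differed past the test's threshold. For both Lox probe sets it ran from empty vector through wild type and the CD mutant to the ED mutant. For Loxl1 it ran from the CD mutant through empty vector and wild type to the ED mutant, over a range of 0.26, with the ED mutant 0.26 above the CD mutant (adjusted p = 0.656 in limma, 95% interval -0.08 to 0.60). For Loxl3 all 4 means lay within 0.12, and for Serpinh1 probe set 1371310_s_at within 0.11. Wild-type BMPR2 differed from empty vector by 0.08 for Loxl1 (95% interval -0.26 to 0.42) and by 0.05 for Loxl3 (95% interval -0.19 to 0.28). These intervals bound only the measured differences, since both genes lay close to the filter level and differences at low signal come out too small. For Lox, Loxl2 and Serpinh1 the arrays were too dim to set a bound.

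**Figure D3:**
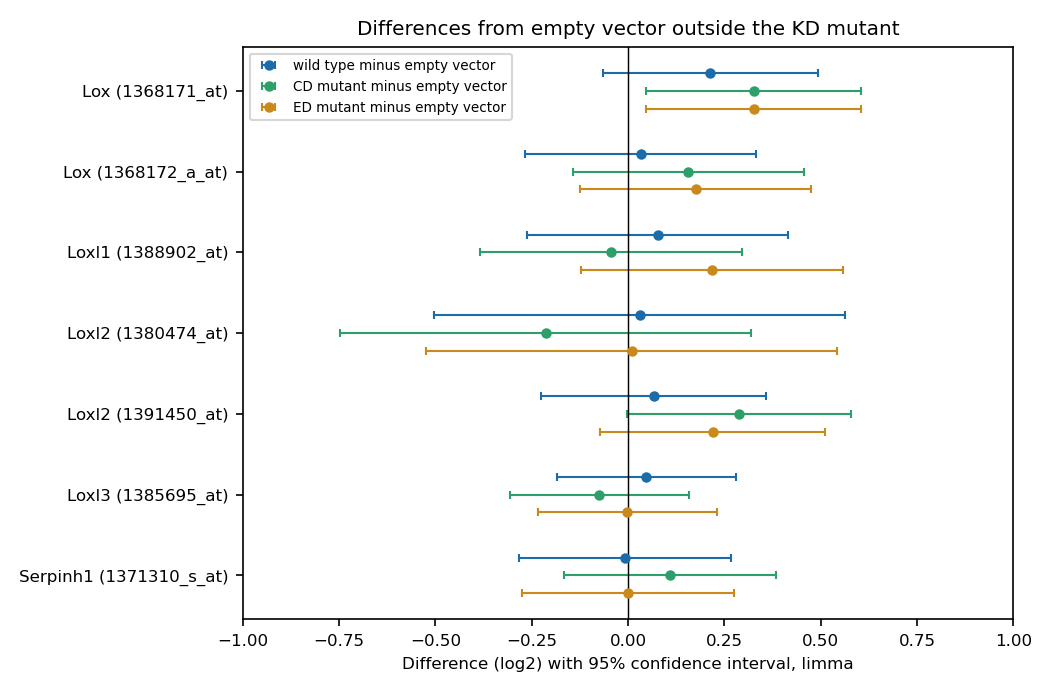
Log2 difference from empty vector of the 7 tested member probe sets in wild type, the CD mutant and the ED mutant; points are limma estimates and bars their unadjusted 95% confidence intervals. All intervals include 0 except those of Lox probe set 1368171_at in the CD and ED mutants, which begin at 0.048 and did not pass after adjustment.

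Collagen is prepared for cross-linking by enzymes and chaperones of the endoplasmic reticulum. Of 19 genes listed for this, 16 were tested, and between the KD mutant and wild type 13 rose, 1 fell and 2 did not pass. Beside this and each list below, 34.5% of all tested probe sets rose there and 55.1% fell. P4hb and P4ha3, subunits of the prolyl hydroxylase that stabilises the triple helix, rose by 4.76 (SE 0.103, adjusted p = 2.53e-12 in limma) and 5.32 (adjusted p = 5.99e-12). P3h3, of the family of prolyl 3-hydroxylases, read 9.09 ± 0.052 (SD, n = 2) in the KD mutant and 4.30 ± 0.083 in wild type, and passed the filter only through the former. It therefore had to differ there, and the counts and median of this list include it. Plod1, which hydroxylates the lysines that are later cross-linked, rose by 3.42. The gene that fell, named after its values were seen, was Crtap, the partner of prolyl 3-hydroxylase 1, at -1.83. Its KD mutant mean of 3.65 is below the filter level. Colgalt1 and Mia3, an exporter of collagen from the endoplasmic reticulum, did not pass, at -0.08 and 0.20 (adjusted p = 0.649 and 0.0784 in limma). After quantile normalization Colgalt1 was called lower at -0.64 (adjusted p = 0.0028) and Mia3 stood at -0.21, and after centring Mia3 was called higher at 0.60 (adjusted p = 0.000169) and Colgalt1 stood at 0.32. The list then held 13 higher and 2 lower, and 14 higher and 1 lower. The list's median difference was 2.34, against -0.56 over all tested probe sets.

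Secreted proteins that process procollagen or activate and anchor lysyl oxidases moved mostly the same way. Of 15 listed, 8 were tested, of which 7 rose and 1 fell, with a median of 2.82. Fn1, fibronectin, a scaffold for lysyl oxidase activation, rose by 6.43 (SE 0.161, adjusted p = 7.38e-12 in limma), Pcolce, an enhancer of procollagen C-proteinase, by 6.01 and Fbln5, which anchors Loxl1 to elastic fibres, by 3.40. Postn, periostin, read 9.62 in the KD mutant and 3.58 in wild type, below the filter level, and passed the filter only through the KD mutant. It therefore had to differ there, and the counts and median of this list include it. The gene that fell, named after its values were seen, was Bmp1, the protease that cleaves the Lox propeptide, at -0.61 (adjusted p = 0.00134 in limma). With arrays centred on their medians Bmp1 stood at -0.22 and did not pass (adjusted p = 0.168).

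The substrates split. Of 11 collagen chains and elastin, 10 were tested, of which 6 rose, 3 fell and 1 did not pass, with a median of 1.19. The fibrillar collagen genes Col3a1 and Col1a1 rose by 5.18 and 4.48 (adjusted p = 6.46e-12 and 1.96e-11 in limma). Col1a2 and Col5a2, which passed the filter only through the KD mutant, read 13.62 and 11.75 there and 3.88 and 3.73 in wild type. Both therefore had to differ there, and the counts and median of this list include them. Eln, which encodes elastin, fell by 1.53 from 5.43 ± 0.074 (SD, n = 2) to 3.91 ± 0.19 (adjusted p = 1.69e-06 in limma). That KD mutant mean is below the filter level, so the size of the fall is not measured exactly. Of the 2 Eln probe sets only the brighter was read. Col2a1, a cartilage collagen, fell by 1.52. Col5a3 was called lower at -0.41, but stood at 0.12 after quantile normalization (adjusted p = 0.419). The list split 5 higher and 3 lower after quantile normalization, and 7 and 2 after centring. Eln, Col2a1 and Col5a3 were named after their values were seen.

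Copper genes moved in both directions. All 8 listed were tested, of which 2 rose and 6 fell, with a median of -0.65, near the -0.56 of all tested probe sets. Ccs, the copper chaperone of superoxide dismutase, rose by 2.34 (SE 0.101, adjusted p = 6.97e-10 in limma). Slc31a1, the copper importer of the plasma membrane, named after its values were seen, was called higher by 0.57 (adjusted p = 0.00196), but stood at 0.25 after quantile normalization (adjusted p = 0.133). Slc31a2, a copper transporter, fell by 2.09, Atp7b, a copper-exporting ATPase, by 1.21 and Atox1, which hands copper to these ATPases, by 0.84. Centring left 2 called higher and 3 lower, and quantile normalization 1 and 6. Atp7a, the pump that loads lysyl oxidase with copper in the Golgi, was named after its values were seen and was among those lost there, at -0.65 in the deposited values (adjusted p = 0.000624 in limma) and -0.25 after centring (adjusted p = 0.0925).

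Heat shock genes split as well, with 5 of 9 tested genes higher, 4 lower and a median of 0.27. Hspb1, which encodes the small heat shock protein HSP27, read 12.84 in the KD mutant and 4.45 in wild type, below the filter level, and passed the filter only through the KD mutant. It therefore had to differ there, and the counts and median of this list include it. Bag3, a co-chaperone, rose by 2.04 and Hspe1, a mitochondrial chaperonin, by 1.12. Hsf1, the transcription factor that binds heat shock elements such as the one in the Serpinh1 promoter, fell by 1.26. After quantile normalization 4 were higher and 4 lower. Whether any gene of this list bears on the values of the Serpinh1 probe sets was not tested.

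Over the 5 lists, 51 of 65 genes were tested and 33 rose, 15 fell and 3 did not pass between the KD mutant and wild type, where 34.5% of all tested probe sets rose. Among the 51, 5 passed the filter only through the KD mutant arrays (P3h3, Postn, Col1a2, Col5a2 and Hspb1). Of the other 46, 28 rose and 15 fell. In the 6 comparisons without the KD mutant, 0 of the 51 changed in limma. Of those 306 differences, 8.17% had an unadjusted p under 0.05, against 7.86% over all tested probe sets. The lowest adjusted p was that of Colgalt1, which adds galactose to collagen, at 0.69 above empty vector in the ED mutant (adjusted p = 0.104). Efemp2, fibulin 4, which binds Lox and elastin, stood at -0.48 in the same comparison (adjusted p = 0.121).

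**Figure D4:**
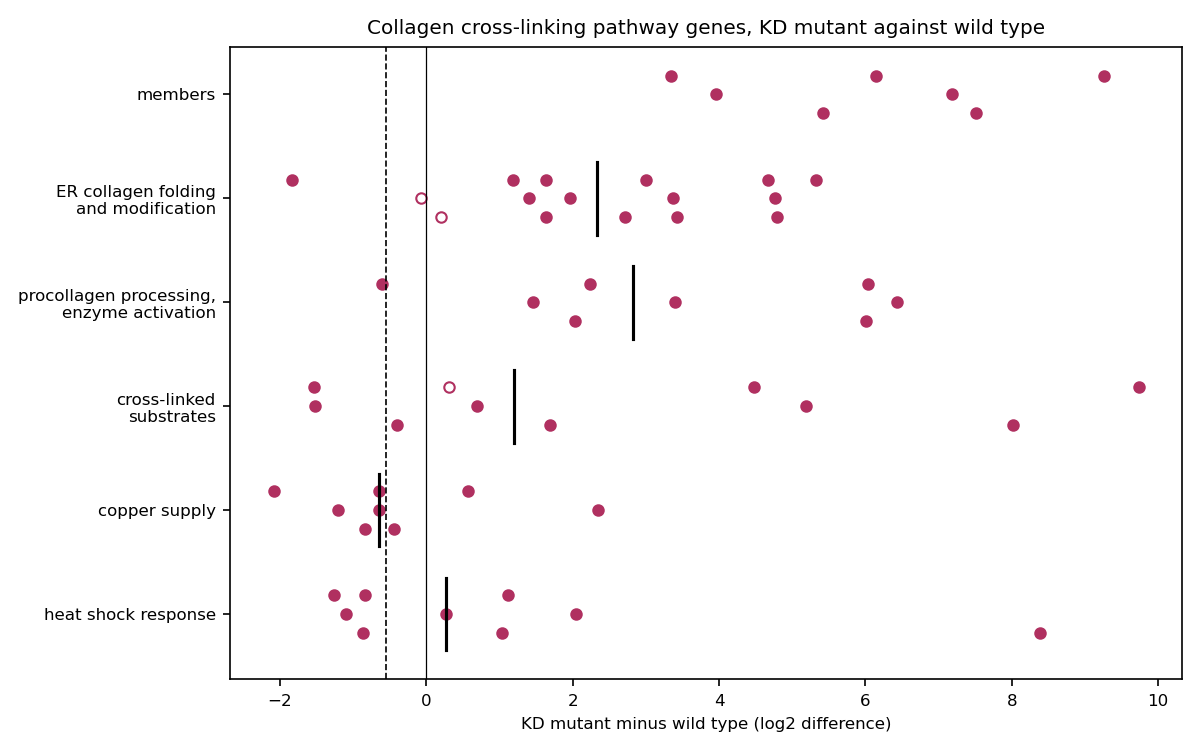
Log2 difference between the KD mutant and wild type for the 7 tested member probe sets (top row) and for the tested genes of 5 lists; filled points have an adjusted p under 0.05, black bars are medians and the dashed line is the median of all tested probe sets, -0.56. No median is drawn for the members, 5 of which passed the filter only through the KD mutant. P3h3, Postn, Col1a2, Col5a2 and Hspb1 passed in the same way. For all of these the fill is not a test result, since they had to lie above 0. The list medians run from 2.82 for procollagen processing to -0.65 for copper supply, and the substrates spread from -1.53 to 9.74.

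Markers of cell types moved with the same split of arrays. Of 11 smooth muscle markers, 6 were above the filter level on all 8 arrays outside the KD mutant and 9 on both KD mutant arrays, and their log2 values summed to 64.1 to 65.6 and to 89.0 to 91.0. Cnn1 was below that level on all 8, and Myocd and Lmod1, which mark differentiated smooth muscle, on all 10. Of 9 smooth muscle markers tested, 6 were called higher in the KD mutant than in wild type. Cnn1 is among these 6, passed the filter only through the KD mutant and therefore had to differ there. Smtn and Mylk were called lower, at -2.04 and -0.66, and Myh11 did not pass, at 0.17. After centring Myh11 was called higher, at 0.57 (adjusted p = 0.00298 in limma). Of 11 epithelial markers, 8 and 6 were above the filter level, with sums of 75.1 to 77.7 and 63.9 to 64.1. Of 9 tested, 8 were called lower than in wild type, and Krt7 was called higher by 4.78. After centring 7 were called lower, and Krt8 stood at 0.015 (adjusted p = 0.922 in limma). Over all tested probe sets 34.5% were called higher and 55.1% lower. Of 7 fibroblast markers 3 and 2 were above the filter level, with sums of 32.2 to 33.7 and 40.4 to 40.5, and Dcn and Lum were below it on all 10. The higher fibroblast sum came from Mfap5 and Thy1, while Pdgfra, Fap and Col6a3 were called lower, for a list median of -0.50. Thy1 stood 3.50 above wild type. Mfap5 read 13.21 in the KD mutant and 3.84 in wild type, and passed the filter only through the former. It therefore had to differ there, and the sum and median include it. The KD mutant means of Pdgfra, Fap and Col6a3 were below the filter level. Fap did not pass after quantile normalization, at 0.059 (adjusted p = 0.678 in limma), or after centring, at -0.105 (adjusted p = 0.455). The list medians were then the same 2 values. Of 6 hepatocyte markers 5 and 2 were above it, with sums of 34.2 to 38.4 and 24.78 to 24.97. Of 5 endothelial markers 0 were above it in either set, with sums of 20.1 to 21.1 and 16.2 to 17.3, and 1 of 4 macrophage markers was in both, with sums of 16.5 to 17.5 and 13.98 to 14.50. Within the other 8 arrays some markers were also called, all higher in the ED mutant. These were Cdh1, Fgb and Hpx against empty vector (1.01, 1.56 and 1.37; adjusted p = 0.00364, 0.000981 and 0.00158 in limma), Krt19, Krt18, Fgb and Hpx against the CD mutant (0.72, 0.52, 0.97 and 1.18; adjusted p from 0.00401 to 0.0482), and Hpx against wild type (1.02; adjusted p = 0.0236). The part of these markers in the members' differences was not tested, and in bulk RNA fewer cells of a type and less RNA per cell cannot be told apart. Since each group is its own line on its own arrays, the KD mutation and anything else particular to those 2 arrays cannot be told apart.

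Over the 8 arrays outside the KD mutant, the genes whose values ran most like each member were found by Pearson correlation, as a description. They were Gpr155, Npc2 and Arhgap42 for Lox (r = 0.971, 0.963 and 0.959), Glipr1, Apcdd1 and Chrm2 for Loxl1 (0.960, 0.947 and 0.936), and Dpy19l3, Rap1b and Iqsec3 for Loxl2 (0.97, 0.95 and 0.95). For Loxl3 they were Terf2, Mier2 and Pla2g3 (0.958, 0.956 and 0.940), and for Serpinh1 Slc22a7, Myo6 and Chmp3 (0.96, 0.95 and 0.93). No gene appears for more than 1 member. The probe sets used were 1368171_at for Lox, 1391450_at for Loxl2 and 1371310_s_at for Serpinh1, and these were below the filter level on all 8 arrays. Over the 8 arrays the SD of the probe set used for each member was 0.080 to 0.18. The points share 4 groups of 2 arrays, and the correlations given are the highest of those with every named gene tested.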

How the data were processed

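The authors deposited log2 probe set values and their processing notes name RMA. Its version is not given in the sources used here, nor is it stated that 1 run held all arrays. RMA corrects background and aligns array distributions, and differences at low signal come out too small. Scanner files were not used. Of 31099 probe sets, 57 controls were left out. Of the rest, 20826 have 1 gene in the platform annotation, 436 several and 9780 none there. Symbols were updated through Entrez identifiers with RefSeq. The filter level is the 40th percentile of all values, to be reached on at least 2 arrays. The fit used limma 3.58.1 (R 4.3.3) with moderated variances (5 group means on 10 arrays, 5 residual degrees of freedom and 11.4 after moderation), two-sided, with SE the moderated standard error. The model was tested on simulated data. Members and lists were chosen with earlier results of these data known. Each list gene is its probe set with the highest mean over all 10 arrays. That mean includes the KD mutant arrays, so among several probe sets of a gene the choice can favour one bright there. At most the 4 genes with the lowest adjusted p per list and comparison are named. The 3 most correlated genes per member are named. Other genes were named after their values were seen, as stated there. Alternatives covered the filter, scaling, variance model, replicate block, threshold, 1 probe set per gene, and leaving out arrays.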

Additional observations from a re-analysis of the deposited data

How the results depend on the processing

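No member difference changed its side of the threshold or, if called, its sign, in any refit in which its probe set was tested; for the 5 probe sets that pass the filter only through the KD mutant arrays this says nothing of stability. For the KD mutant against wild type, the 7 called probe sets were 5 with 1 probe set per gene and 8 without the filter. The count of 7 includes the 5 that had to differ there, and 89.6% of all tested probe sets were called. Leaving out 1 array in turn gave counts of 2 to 7, and likewise 2 to 7 against empty vector, the CD mutant and the ED mutant. The count of 2 came from leaving out either KD mutant array, KD mutant replicate 1 or 2, since the probe sets of Lox, Loxl2 and Serpinh1 then no longer passed the filter and were not tested, and Loxl1 and Loxl3 were called. Over the alternatives, the difference from wild type ran from 7.27 to 7.91 and 6.87 to 7.57 for Lox, 5.89 to 6.54 for Loxl1, 2.98 to 3.74 and 5.08 to 5.82 for Loxl2, 3.57 to 4.35 for Loxl3 and 9.19 to 9.66 for Serpinh1. Among the other 4 groups 0 member probe sets were called under any alternative; 33 of 708 refits of these uncalled differences turned sign. The labels number the arrays of each group 1 and 2. Deviations from the group means correlated between groups at -0.029 to 0.143, with 1 of 10 pairs above 0.1, so the numbers were not taken to pair the arrays. With a replicate block Loxl1 and Loxl3 were called in the KD mutant against wild type, as without it. So were 89.7% of all tested probe sets. The counts over all probe sets moved more: 3 for wild type against empty vector ran from 1 to 68, 25 and 119 for the CD and ED mutants against it from 1 to 144 and 19 to 493, 37 for the ED mutant against wild type from 0 to 142, 79 between these mutants from 12 to 287, and 83 in the F test from 9 to 422. The cause was not tested. Counts with the KD mutant lay between 85.6% and 90.3% of tested probe sets. Depth has no meaning for arrays; most members lay below the filter level outside the KD mutant, which limits what those arrays can show.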

Other observations

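Probe sets of 1 gene can disagree on the KD mutant arrays, as those of Serpinh1 do. Over 4525 genes with more than 1 probe set of their own, the median spread of their differences between the KD mutant and wild type was 1.27 log2 units, with tested and untested probe sets included. Serpinh1 had a spread of 8.89. Its brighter probe set passed the filter only through the KD mutant arrays, so this spread is a description and is not ranked. Other genes with a wide spread, named after their values were seen, were Pgk1, a glycolytic kinase, from -0.58 to 9.87, and Cdh11, a mesenchymal cadherin, from -1.67 to 7.82. Sv2b, a synaptic vesicle protein, named in the same way, ran from -1.69 to 7.34. The spread was 0.33 for Lox and 2.08 for Loxl2.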
